A study of Mus musculus with 9 samples.

Results

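The genes of antigen presentation by major histocompatibility complex (MHC) class II molecules were followed across the cell types and genotypes of mouse bone marrow. Transcripts had been counted cell by cell with Drop-seq, which captures single cells with barcoded beads in droplets. The members were chosen by symbol as Cd74, H2-Aa, H2-Ab1, H2-Eb1, H2-DMa, H2-DMb1, H2-DMb2 and Ciita, and all 8 were among the 15265 genes measured. Whole bone marrow came from C57BL/6 mice that were 2-3 weeks old and carried the NG2-cre transgene in both groups. The control group was NG2-cre/Pot1a wt/wt (5 libraries) and the deleted group was NG2-cre/Pot1a fl/fl (4 libraries). POT1a is a telomere binding protein, and the NG2 (Cspg4) promoter directs Cre to mesenchymal cells, so the blood cells described here are mostly not the cells in which the allele is designed to be deleted. The comparison of genotypes asks whether blood cells differ in marrow whose mesenchymal cells lack POT1a.

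Each library held 100 cell barcodes, and 899 of 900 were kept. The libraries held 119459 to 465277 counts in all, and the median per kept cell ran from 955.5 (fl/fl 3) to 3704 (fl/fl 1). The labels do not tie libraries to animals, and the study describes fewer mice than libraries in each group. Some libraries therefore share an animal, and p-values over libraries, which measure a spread that may be technical, are too small. Libraries wt/wt 2 and wt/wt 3 shared 19 barcodes, the 1 pair of 36 to share any, and those cells carried 3 and 4 counts of the main class II genes. Pot1a itself was seen with 3, 9, 10, 6 and 2 counts in wt/wt 1 to 5 and with 10, 3, 1 and 15 in fl/fl 1 to 4. None of its counts was in the 16 mesenchymal-like cells, so these libraries do not check the deletion in the targeted cells. Cell types were named from marker genes after clustering without the 8 members. They comprised 226 B-lineage-like cells (121 pre-B-like and 105 pro-B-like), 65 monocyte/macrophage-like, 269 granulocyte-like, 159 erythroid-like and 16 mesenchymal-like cells, and 164 cells stayed unnamed.

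Class II molecules display peptides from ingested or surface proteins to CD4+ T cells, and they are a hallmark of dendritic cells, macrophages and B cells. H2-Aa encodes the alpha chain and H2-Ab1 the beta chain of the A molecule, and H2-Eb1 encodes the beta chain of the E molecule. C57BL/6 mice do not express the E alpha chain, so H2-Eb1 transcript is made without a functional partner. Cd74 encodes the invariant chain, which fills the peptide groove until the complex reaches the endosome. H2-DMa with H2-DMb1 or H2-DMb2 forms the DM editor that exchanges the remnant of the invariant chain for peptide. Ciita is the coactivator that switches these genes on through promoter-bound RFX and NF-Y proteins. Cd74, H2-Aa, H2-Ab1 and H2-Eb1 are called the core genes below.

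A group of 6 members lies together on chromosome 17 of GRCm38 in the GENCODE annotation. H2-DMa spans bases 34119541 to 34139101, H2-DMb2 34143307 to 34151555 and H2-DMb1 34153072 to 34160230, all on the plus strand. H2-Ab1 follows at 34257689 to 34269419 (plus), H2-Aa at 34282744 to 34287823 (minus) and H2-Eb1 at 34305867 to 34316674 (plus). Ciita lies on chromosome 16 at 10480059 to 10528418 (plus).

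Promoter windows of RefSeq (GRCm38.p6, 250 bases before to 50 after a gene's start) were available for H2-Aa, H2-Eb1, H2-DMa, H2-DMb1 and H2-DMb2. Those of H2-Aa, H2-Eb1 and H2-DMb2 are printed because they show how the letters read by the class II regulators are arranged in core and DM genes. Capitals mark ATTGG, the letters bound by NF-Y (the Y box), and AACNGATG, which resembles the RFX-bound X box and was chosen after these windows had been read.
H2-Aa chr17:34287857-34287921 (minus strand): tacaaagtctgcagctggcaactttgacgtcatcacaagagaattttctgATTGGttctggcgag
H2-Eb1 chr17:34305758-34305822 (plus strand): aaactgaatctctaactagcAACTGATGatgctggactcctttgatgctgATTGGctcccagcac
H2-DMb2 chr17:34145109-34145173 (plus strand): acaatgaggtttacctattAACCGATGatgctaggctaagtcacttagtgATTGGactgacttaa
The ATTGG of H2-Aa begins 48 bases before the start, that of H2-Eb1 59 bases and that of H2-DMb2 90 bases. In H2-Eb1 and H2-DMb2 AACNGATG stands upstream of it, whereas the H2-Aa window has no match to those letters. H2-DMb1 held both motifs, and 1 of the 2 H2-DMa windows held ATTGG alone. On either strand, ATTGG occurred in 37.4% and AACNGATG in 2.32% of all 32851 windows of the same length. Both motifs with 20 to 40 bases between their first letters occurred in 8 windows (0.0244%), named Fgd4, H2-DMb2, H2-DMb1, H2-Eb1, H2-Eb2, BC051142, Sf1 and Gm35697. The range takes in the spacings of H2-Eb1 and H2-DMb2, and AACNGATG was chosen after their windows had been read. The place of class II genes among the 8 is therefore no test. A match of letters is a description and shows no binding.

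Transcripts of these genes were sparse, and the core genes made up most of them. Cd74 had 194 counts in 62 cells, H2-Ab1 133 in 75, H2-Aa 47 in 26 and H2-Eb1 44 in 17. H2-DMa had 54 counts in 47 cells, H2-DMb1 had 19 counts and H2-DMb2 had 7. Ciita had 1 count in the whole series. Every member except Ciita was therefore seen in more than 1 library, but only Cd74 and H2-Ab1 passed the usual filter on low counts in whole marrow. H2-DMb1 and H2-DMb2 share sequence: 22.7% of the 50-base stretches of H2-DMb1 transcripts also occur in H2-DMb2, so reads between the pair are uncertain. No such overlap exceeded 0.488% for Cd74, H2-Aa, H2-Ab1, H2-Eb1, H2-DMa or Ciita.

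The levels of the core genes varied widely among libraries of the same genotype. Cd74, the invariant chain, had 46, 63, 9, 17 and 10 counts in wt/wt 1 to 5 and 5, 8, 14 and 22 in fl/fl 1 to 4. H2-Ab1, the A beta chain, had 24, 25, 23, 15 and 2 counts in wt/wt and 17, 9, 1 and 17 in fl/fl. The highest Cd74 values belonged to wt/wt 1 and wt/wt 2, and for both genes the 2 genotypes overlapped. H2-Aa, the A alpha chain, had 13, 10, 5, 1 and 5 counts in wt/wt and 3, 3, 1 and 6 in fl/fl. H2-Eb1 had 8, 25, 4, 0 and 1 counts in wt/wt and 3, 0, 1 and 2 in fl/fl, so wt/wt 2 alone held most of them. The DM chain H2-DMa had 2, 8, 8, 2 and 2 counts in wt/wt and 7, 13, 2 and 10 in fl/fl, with the highest library in fl/fl.

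**Figure D1:**
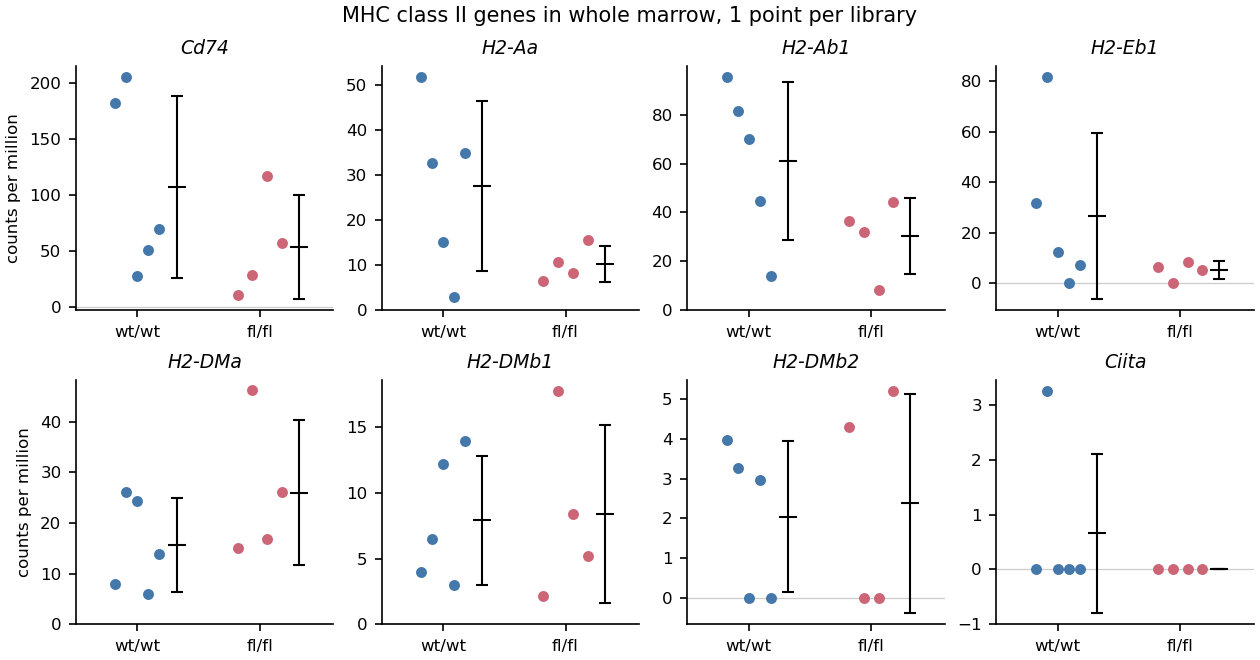
Level of the class II genes in CPM, the counts of a gene per 1000000 counts of its library, in each of the 9 whole-marrow libraries, with the mean and standard deviation of each genotype. The Pot1a wt/wt and Pot1a fl/fl points overlap for every gene, and Cd74 averaged 107 CPM in wt/wt and 53.4 in fl/fl.

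The members were unevenly spread over the cell types. Cd74 was seen in 34 of 226 B-lineage-like cells (15%, Wilson 95% interval 11 to 20.3), in 7 of 65 monocyte/macrophage-like cells (10.8%), in 5 of 269 granulocyte-like cells (1.86%) and in 4 of 159 erythroid-like cells (2.52%). The median depth of these classes was 2168.5, 1998, 2256 and 2283 counts per cell, so the low shares of the last 2 classes came at a depth similar to that of the B lineage. They serve as a comparison, since neither cell type is known for class II expression. The source of their counts was not tested. Of the 9 Cd74 counts of granulocyte-like cells, 4 lay in 1 cell of fl/fl 4. That cell also carried 9 B-lineage marker genes with 19 counts and was not marked as a doublet. Intervals cover counting error only. When each cell was thinned to 1000 counts, the share was 8.21% in B-lineage-like cells (200 of them deep enough), 0.848% in granulocyte-like and 0.761% in erythroid-like cells. For H2-Ab1 the share was 20.4% of B-lineage-like cells, against 1.86% of granulocyte-like and 3.14% of erythroid-like cells. Any core gene was seen in 76 B-lineage-like cells (33.6%, or 18.1% after thinning), in 13 granulocyte-like cells (4.83%) and in 12 erythroid-like cells (7.55%).

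Summed over the cells of each library, Cd74 reached 154 ± 160 CPM (SD, n = 9 libraries) in B-lineage-like cells, 14.3 ± 21.7 in granulocyte-like cells and 9.4 ± 15.4 in erythroid-like cells. In monocyte/macrophage-like cells it was 517 ± 1189 CPM (n = 8), a spread larger than the mean. The order therefore ran from monocyte/macrophage-like over B-lineage-like to the other classes, and the 2 highest did not differ beyond their spread. Counted library by library, Cd74 was higher in B-lineage-like than in monocyte/macrophage-like cells in 6 of 8 libraries, the opposite of the order of the means. It was higher in B-lineage-like than in granulocyte-like cells in 8 of 9 libraries and equal in 1, and the same numbers held against erythroid-like cells. H2-Ab1 averaged 86.9 ± 61.0 CPM in B-lineage-like cells (n = 9), 279 ± 496 in monocyte/macrophage-like cells (n = 8), 8.9 ± 13 in granulocyte-like cells and 9.4 ± 15.8 in erythroid-like cells. H2-Eb1 averaged 25 ± 19.2 CPM in B-lineage-like and 187 ± 443 in monocyte/macrophage-like cells.

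**Figure D2:**
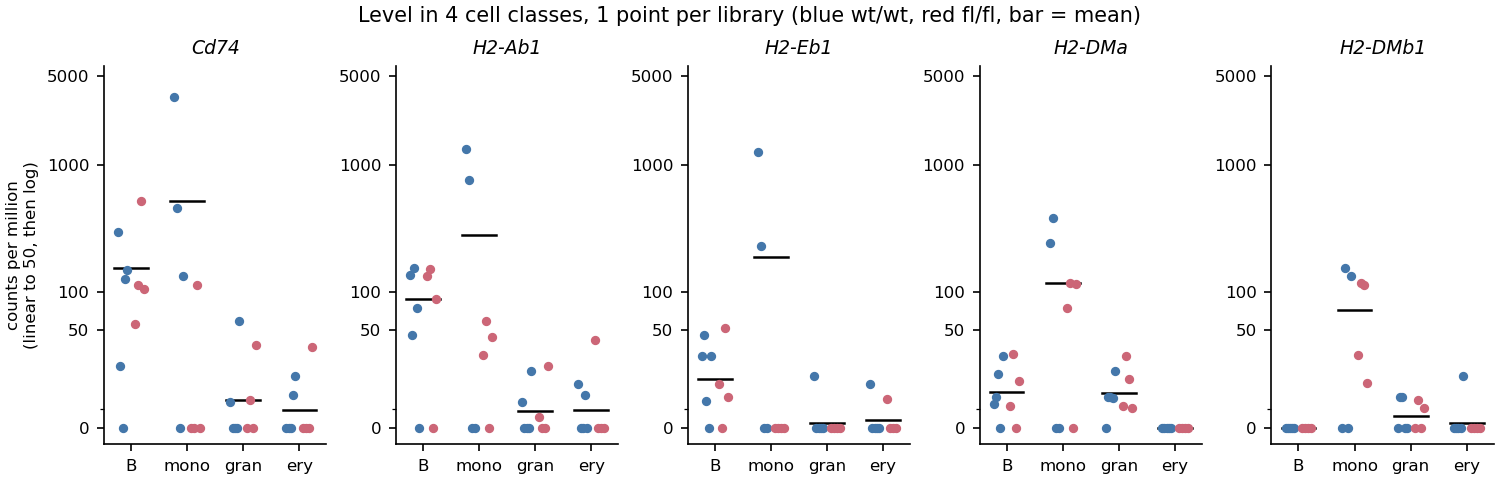
Level (CPM of the summed counts) of Cd74, H2-Ab1, H2-Eb1, H2-DMa and H2-DMb1 in the B-lineage-like (B), monocyte/macrophage-like (mono), granulocyte-like (gran) and erythroid-like (ery) cells, with 1 point per library of at least 5 such cells, the mean as a bar and an axis that is linear to 50 and logarithmic above. The plotted core genes stand highest in B-lineage-like and monocyte/macrophage-like cells, and the monocyte/macrophage-like points are spread from 0 to 3434 CPM for Cd74.

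The differences between classes were tested with edgeR's quasi-likelihood test on 35 sums of a library and a class (Benjamini-Hochberg adjustment over 6376 genes with at least 30 counts). That limit was chosen after the usual filter had left no member to test in any class with all libraries in the fit. The members had no part in the clustering. H2-DMb1, H2-DMb2 and Ciita stayed under that limit. Over the sums H2-Aa had 33 counts, H2-Eb1 41 and H2-DMa 42. Where such a gene reached the limit only with the class in which it was higher, its call is given as a description. Each log2 fold change is printed with its approximate standard error.

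Between B-lineage-like and granulocyte-like cells, 3 of the 5 tested members were higher in the B lineage, where 13.2% of all genes were higher and 15.3% lower. Cd74 was higher by a log2 fold change of 2.79 ± 0.51 (adjusted p = 8.86e-07), H2-Ab1 by 2.99 ± 0.55 (adjusted p = 9.73e-07) and H2-Aa by 2.00 ± 0.72 (adjusted p = 0.0236). H2-Aa rested on 17 against 3 counts, a ratio of 6.75 with a counting interval of 1.95 to 35.9. H2-Aa reached the limit on counts only with its B-lineage-like counts, so its call is given as a description. The call for H2-Aa was lost without fl/fl 1, 2 or 3 and with DESeq2 (adjusted p = 0.0556 to 0.137). H2-Eb1 (1.97 ± 0.81, adjusted p = 0.0515) missed the threshold, although it passed without wt/wt 1 (3.12, adjusted p = 0.00756). H2-DMa did not pass (-0.27 ± 0.63, adjusted p = 0.801). Cd74 and H2-Ab1 passed in all 13 alternatives tried.

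Between B-lineage-like and erythroid-like cells, 4 of the 5 tested members were higher in the B lineage, beside 19.1% of all genes higher and 10.3% lower. Cd74 was higher by 3.57 ± 0.62 on the log2 scale (adjusted p = 2.67e-07), H2-Ab1 by 2.85 ± 0.60 (adjusted p = 2.62e-05) and H2-Aa by 2.17 ± 0.83 (adjusted p = 0.0332). The call for H2-Aa is again a description, since the gene reached the limit on counts only with its B-lineage-like counts. H2-DMa also passed (adjusted p = 0.0119). Erythroid-like cells held 0 of its counts, so its ratio is given against a floor of 3 counts over the class, 2.36-fold higher. The counting error of its 11 B-lineage-like counts is left out of that ratio. H2-Eb1 did not pass (1.89 ± 0.89, adjusted p = 0.0955). With DESeq2 the calls for H2-Aa, H2-Ab1 and H2-DMa were lost (adjusted p = 0.216, 0.0736 and 0.166), and that for H2-Aa was also lost without fl/fl 2 or fl/fl 3 (adjusted p = 0.0878 and 0.0583).

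The monocyte/macrophage-like class was called above granulocyte-like cells for all 5 tested members, where 2.01% of all genes were higher and 7.79% lower. Counted library by library, Cd74 was higher in 4 of 8 libraries, lower in 2 and equal in 2. H2-Ab1 was higher in 5, lower in 1 and equal in 2, and H2-DMa was higher in 5 and lower in 3. H2-Aa was higher in 3 and equal in 5, and H2-Eb1 was higher in 2 and equal in 6. The log2 fold changes were 3.67 ± 0.55 for Cd74 (adjusted p = 6.38e-09), 3.82 ± 0.60 for H2-Ab1 (adjusted p = 3.41e-08) and 2.87 ± 0.81 for H2-Aa (adjusted p = 0.00785). H2-Eb1 was higher by 4.22 ± 0.82 (adjusted p = 1.76e-05). Pooled over all libraries, including the wt/wt 1 sum of 4 cells that was left out of the test, it had 25 against 2 counts, a ratio of 58.9 (14.7 to 513, counting error only). H2-DMa was higher by 1.83 ± 0.62 (adjusted p = 0.0384). For the core genes, single cells carried these values, as described below. H2-Aa, H2-Eb1 and H2-DMa reached the limit on counts only with their monocyte/macrophage-like counts. The calls for these genes are therefore given as descriptions. Without wt/wt 2 the Cd74 difference fell to 1.35 (adjusted p = 0.282), and where each cell was assigned on its own markers it was 1.6 (adjusted p = 0.195) and that of H2-Ab1 1.47 (adjusted p = 0.194). With DESeq2 all these calls except that of H2-Ab1 were lost (adjusted p = 0.0754 to 0.342). The H2-DMa call was lost in 8 of 13 alternatives, which besides DESeq2 were those without fl/fl 1, fl/fl 4, wt/wt 2 or wt/wt 3 (adjusted p = 0.0812 to 0.206), with no filter (0.0687), with cells assigned on their own markers (0.0964) and with wt/wt 2 and 3 as 1 library (0.0792).

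Set against each other, the B-lineage-like and monocyte/macrophage-like classes differed for 2 of the 5 tested members, both lower in the B lineage, where 15.7% of all genes were higher and 8.12% lower and the median gene stood at 0.43. H2-DMa was lower in B-lineage-like cells (-2.10 ± 0.63, adjusted p = 0.00608), in every one of 13 alternatives. H2-Eb1 was lower as well (-2.25 ± 0.70, adjusted p = 0.00879), but all 25 of its monocyte/macrophage-like counts came from 3 cells, and the call was lost with DESeq2 (adjusted p = 0.741). Both H2-DMa and H2-Eb1 reached the limit on counts only with their monocyte/macrophage-like counts, so these calls are given as descriptions. Cd74 (-0.89 ± 0.46, adjusted p = 0.149), H2-Ab1 (-0.83 ± 0.46, adjusted p = 0.189) and H2-Aa (-0.87 ± 0.72, adjusted p = 0.408) did not pass. The direction of Cd74 turned without wt/wt 2 (1.17, adjusted p = 0.152) and was called the other way where each cell was assigned on its own markers (1.64, adjusted p = 0.0103). It was called lower in the B lineage without fl/fl 4 (-1.19, adjusted p = 0.0478) and without wt/wt 4 (-1.26, adjusted p = 0.0276).

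**Figure D3:**
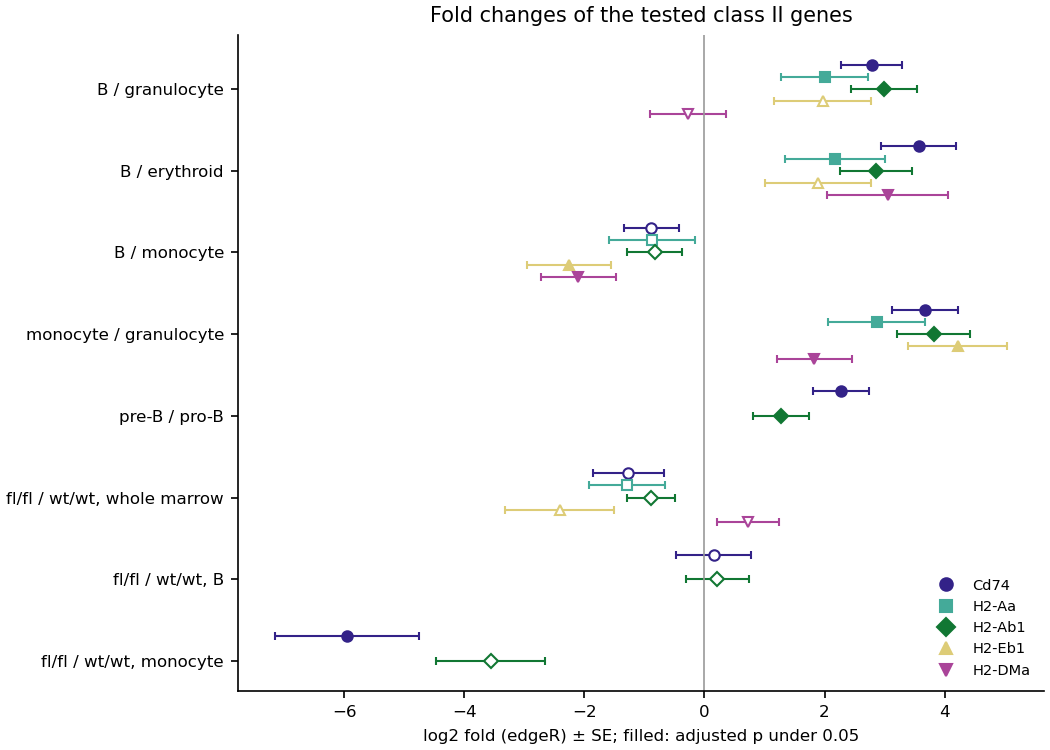
Log2 fold changes of the tested class II genes in each comparison, with approximate standard errors; filled points passed the 5% threshold after Benjamini-Hochberg adjustment. Cd74 and H2-Ab1 lie near 3 in the B lineage against granulocyte-like and erythroid-like cells, whereas H2-DMa lies at -2.10 against the monocyte/macrophage-like class.

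The DM chains were distributed differently from the core genes. H2-DMa was seen in 15 of 65 monocyte/macrophage-like cells (23.1%) and in 10 of 226 B-lineage-like cells (4.42%), with 116 ± 136 CPM (n = 8) and 18.4 ± 14.2 CPM (n = 9). The monocyte/macrophage-like class was higher for H2-DMa in 5 of 8 libraries, lower in 1 and equal in 2. H2-DMb1, the partner chain, was seen in 9 monocyte/macrophage-like cells (13.8%) with 9 counts and in 0 of 226 B-lineage-like cells, which allows a share of up to 1.33% of cells with a count (3 of 226). At about 2000 counts per cell this does not limit the share of cells that express the gene. A floor of 3 counts was set for the B-lineage class, and the counting error of the 9 counts was left out. On that basis H2-DMb1 was 11.9-fold higher in the monocyte/macrophage-like class, pooled over libraries. With no filter it was also lower in the B lineage by edgeR (adjusted p = 0.00699), among 3.74% of all genes. Of the granulocyte-like counts, 9 of 13 for H2-DMa and all 5 for H2-DMb1 lay in a cluster led by Elane, Ctsg and Mpo, the granule genes of promyelocytes. H2-DMb2 had 5 of its 7 counts in granulocyte-like cells, and its shared sequence with H2-DMb1 limits what can be said of it. An unnamed cluster of 61 cells led by Ms4a4b, Ctla2a, Ifitm1 and Angpt1 held 12 H2-DMa counts in 11 cells (18%) but only 4 counts of the core genes. None of those 11 cells carried a core gene. In the whole marrow 12 of 47 cells with H2-DMa also carried a core gene (25.5%), against 14.8% of the other cells.

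Core genes were rarely seen together, and the cells that carried several were few. No core gene was seen in 761 of 899 cells, 1 in 112 cells, 2 in 14, 3 in 8 and all 4 in 4 cells. Of the 8 cells with 3 core genes, 6 were B-lineage-like and 2 mesenchymal-like, and of the 4 cells with all core genes 3 were monocyte/macrophage-like and 1 B-lineage-like. H2-Ab1 was seen in 15 of 62 cells with Cd74 (24.2%) and in 7.17% of the other cells. Within the B lineage these shares were 29.4% and 18.8%. In sparse counts a deep cell shows more of any gene, and the part of depth in these shares was not tested.

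A set of 3 cells carried most of the class II signal of the monocyte/macrophage-like class, and each came from a different wt/wt library. The cell in wt/wt 2 had 106 core counts of 2181, with Cd74 at 56, H2-Ab1 at 22, H2-Eb1 at 21 and H2-Aa at 7. It also held the 1 Ciita count of the series and 2 H2-DMa counts. The cell in wt/wt 1 had 38 core counts of 2384 (18 of Cd74, 10 of H2-Ab1, 9 of H2-Aa and 1 of H2-Eb1), and that in wt/wt 3 had 22 of 2585 (6, 10, 3 and 3 in the same order). Together they held 166 of the 175 core counts of their class (94.9%) and 39.7% of all core counts of the series. For Cd74 alone they held 80 of 194 counts (41.2%). The other 62 cells of the class had 9 core counts, 4 of them Cd74, whereas they kept 15 H2-DMa counts in 13 cells (21.0%) and 8 H2-DMb1 counts.

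**Figure D4:**
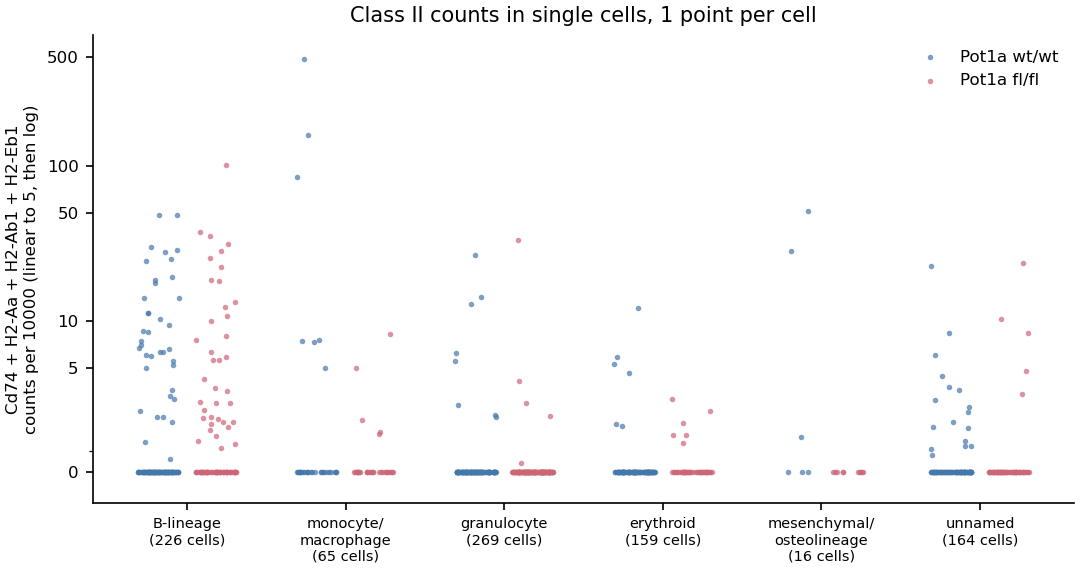
Counts of the core genes (Cd74, H2-Aa, H2-Ab1 and H2-Eb1) per 10000 counts in each kept cell, by cell class and genotype, on an axis that is linear to 5 and logarithmic above. The 3 highest monocyte/macrophage-like cells, all of wt/wt libraries, stand at 486, 159 and 85.1 per 10000, and the highest B-lineage-like cell, of fl/fl 3, at 102.

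A few dendritic cell markers were seen in these 3 cells. The listed dendritic cell genes, 14 of them measured, made up 21.0 of 10000 counts in the 3 cells and 2.05 in the rest of their class. The wt/wt 2 cell had 6 counts of Cd209a, a lectin receptor of dendritic cells, 1 of Flt3, the receptor for the dendritic growth factor, and 1 of Tcf4. The wt/wt 3 cell had 4 of Cd209a and 2 of Flt3, and the wt/wt 1 cell had 1 of Itgax, the CD11c gene. Of the 14 genes, 4 were seen in the 3 cells, and the other listed genes, Siglech, Zbtb46 and Clec9a among them, were at 0. Erythroid markers (67.1 of 10000 counts) and granulocyte markers (33.6) stood above the dendritic list in the 3 cells. In the rest of the class these 2 lists were at 82.5 and 145. Monocyte markers made up 55.9 of 10000 counts in the 3 cells and 107 in the rest of the class. The 3 cells were unlike in this, with 25 monocyte marker counts over 8 genes in the wt/wt 3 cell. The wt/wt 2 cell had 11 such counts and the wt/wt 1 cell 4. Assigned on their own markers, the cells of wt/wt 1 and wt/wt 2 were called dendritic cells and that of wt/wt 3 monocyte/macrophage. None was marked as a doublet, none shared its barcode with another library, and of the 20 B-lineage genes the wt/wt 2 cell had 0 counts, the wt/wt 1 cell 2 (Ebf1 and Igkc) and the wt/wt 3 cell 1 (Ighm). Their identity beyond these markers was not tested.

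Cells of other classes also stood high. At 50 or more core counts per 10000, the limit passed by these 3 cells, the wt/wt libraries also held a mesenchymal-like cell in wt/wt 2 (51.2 per 10000, in a cell of 977 counts), and the fl/fl libraries held 1 B-lineage-like cell in fl/fl 3 (102 per 10000, in a cell of 394 counts). At 25 or more, there were 12 of 499 wt/wt cells and 7 of 400 fl/fl cells, and 6 in each genotype were B-lineage-like. The mesenchymal-like class as a whole had 11 core counts in 3 of its 16 cells, all 3 of them wt/wt.

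Within the B lineage, the later stage carried more class II transcript. In pre-B-like cells, marked by Igkc and Fcrla, Cd74 had 58 counts in 24 of 121 cells, and in pro-B-like cells, marked by Vpreb1, Igll1 and Dntt, 18 counts in 10 of 105 cells. The levels were 294 ± 348 and 45.7 ± 83.8 CPM (n = 9 libraries each). Counts in pre-B-like cells were 11, 2, 0, 12 and 3 in wt/wt 1 to 5 and 5, 4, 10 and 11 in fl/fl 1 to 4. In pro-B-like cells they were 13, 0, 0, 0 and 1 in wt/wt and 0, 2, 0 and 2 in fl/fl. In CPM, the pre-B-like sum was higher in 8 of 9 libraries and both were 0 in wt/wt 3. In wt/wt 1 alone the pro-B-like cells held more than 2 counts, and 1 cell held 6 of those 13. That cell carried the later-stage markers Igkc (6 counts) and Ms4a1 (3 counts) and none of Vpreb1, Igll1 or Dntt.

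Cd74 was higher in pre-B-like cells by a log2 fold change of 2.27 ± 0.46 (edgeR, adjusted p = 2.70e-05 over 3404 genes), and it passed in all 13 alternatives with 2.04 to 3.32. H2-Ab1 had 41 counts in pre-B-like and 22 in pro-B-like cells, 141 ± 119 and 50.3 ± 46.1 CPM. It was higher by 1.27 ± 0.47 with an adjusted p of 0.0490, just inside the threshold. Both members that could be tested were called higher at the later stage, where 6.08% of all genes were higher and 7.76% lower. Each reached the limit of 30 counts only with its pre-B-like counts, so both calls are given as descriptions. With no filter Cd74 passed by edgeR as well and H2-Ab1 did not (adjusted p = 0.225). The H2-Ab1 call was lost in 8 of 13 alternatives (adjusted p = 0.0513 to 0.933), among them those without fl/fl 2, wt/wt 1, wt/wt 3 or wt/wt 4, and its direction turned where each cell was assigned on its own markers (-0.35). The stages differed in depth, with a median of 1938 counts in pre-B-like and 2765 in pro-B-like cells. The 4 core genes together averaged 526 ± 324 CPM in pre-B-like and 127 ± 116 in pro-B-like cells.

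Between genotypes, no member passed the test in whole marrow. Cd74 averaged 107 ± 81.2 CPM in wt/wt (n = 5) and 53.4 ± 46.6 in fl/fl (n = 4), with a log2 fold change of fl/fl over wt/wt of -1.25 ± 0.61 (adjusted p = 0.635). H2-Ab1 averaged 61.1 ± 32.3 and 30.3 ± 15.5 CPM (-0.87 ± 0.40, adjusted p = 0.606). Neither of these 2 members was called, and of the 4559 genes tested 0.0658% were. With at least 30 counts required, H2-Aa (-1.29 ± 0.63, adjusted p = 0.675), H2-Eb1 (-2.41 ± 0.91, adjusted p = 0.570) and H2-DMa (0.73 ± 0.51, adjusted p = 0.797) did not pass either. With no filter Cd74 was the member that passed (-1.27, adjusted p = 0.0352), among 0.452% of all genes. In whole marrow, fewer cells of a type and less transcript per cell cannot be told apart. The 3 class II-rich cells moved with these values: over all wt/wt cells the core genes had 224 CPM with them and 103 without, against 89.6 in fl/fl. For Cd74 the corresponding values were 106, 47.8 and 39.2 CPM, and for H2-Ab1 65.2, 34.6 and 35.2 CPM. These cells were chosen by their values, so no test is given.

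The share of cells with Cd74, thinned to 1000 counts, was 10.1, 2.70, 1.34, 3.64 and 1.37% in wt/wt 1 to 5 and 1.30, 2.89, 2.84 and 5.63% in fl/fl 1 to 4. The groups overlapped, at 3.84 ± 3.64% and 3.16 ± 1.80%. The difference of -0.67 percentage points had a 95% interval of -5.5 to 3.55 and a two-sided exact permutation p of 0.833 over 126 regroupings, the smallest possible being 0.00794. Cells under 1000 counts were left out, 46 of 100 in wt/wt 5 and 56 of 100 in fl/fl 3 but at most 4 in any other library. Thinned to 500 counts the difference was -1.14 points (exact p = 0.460), and without thinning it was -0.71 points (exact p = 0.770). Its direction turned without wt/wt 1 (0.90 points, exact p = 0.457).

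Within the B lineage, Cd74 had 24, 2, 0, 12 and 4 counts in wt/wt 1 to 5 and 5, 6, 10 and 13 in fl/fl 1 to 4. H2-Ab1 had 11, 3, 11, 7 and 0 counts in wt/wt and 12, 8, 0 and 11 in fl/fl. Neither gene separated the genotypes. The log2 fold changes were 0.15 ± 0.63 for Cd74 and 0.21 ± 0.52 for H2-Ab1 (edgeR, adjusted p = 1.0 for both). None of the 3404 genes tested was called (0.0% of them) and neither was either member. Cd74 changed direction when fl/fl 3, wt/wt 2 or wt/wt 3 was left out (-0.42, -0.077 and -0.19), as did H2-Ab1, at -0.0043, without fl/fl 1.

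In the monocyte/macrophage-like class, Cd74 had 19, 57, 6, 0 and 1 counts in wt/wt 1 to 5 and 0, 0, 1 and 0 in fl/fl 1 to 4. Pooled, 83 counts against 1 gave a ratio of 128, with a counting interval of 22.3 to 5110 that leaves out the spread between cells. The 3 rich cells gave 80 of the 83 counts. With the wt/wt 1 sum of 4 cells left out, Cd74 was lower in fl/fl (edgeR, log2 fold change -5.96 ± 1.19, adjusted p = 0.0367), the 1 gene called among 1006, or 0.0994%. It reached 30 counts through wt/wt 2 alone, and mostly through 1 cell, so the gene passed the limit because it was high in that group and the call is no support for a difference between genotypes. Without wt/wt 2 it had under 30 counts and was not tested. The call was lost without any 1 of the fl/fl libraries (adjusted p = 0.138 to 0.764) and with DESeq2 (adjusted p = 0.991). H2-Ab1 had 10, 22, 10, 0 and 0 counts in wt/wt and 1, 1, 0 and 2 in fl/fl and did not pass (-3.56 ± 0.91, adjusted p = 0.205), though it did without wt/wt 4 (adjusted p = 0.0223). It reached 30 counts only with wt/wt 2 and wt/wt 3, where 1 cell each held its 22 and 10 counts. With no filter, 3 of 9216 genes were called (0.0326%), and all were members: Cd74 (adjusted p = 1.15e-09), H2-Eb1 (0.000547) and H2-Ab1 (0.0115). In the libraries tested, their counts lay mostly in the rich cells of wt/wt 2 and wt/wt 3. None of these calls, nor that of H2-Ab1 without wt/wt 4, is support for a difference between genotypes. H2-Eb1 had all its counts in this class in the 3 rich cells. H2-DMa, at 0, 4, 5, 0 and 0 counts in wt/wt and 2, 2, 0 and 5 in fl/fl, and H2-DMb1, at 1, 0, 2, 0 and 1 in wt/wt and 1, 2, 1 and 1 in fl/fl, overlapped between the genotypes.

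Genes that work with the members were described by lists: promoter factors, endosomal processing, class I presentation, co-stimulation and turnover, and the remaining class II region genes. No listed gene was called between genotypes in whole marrow. That covered 6 tested promoter factors (median log2 fold change 0.08), 9 endosomal genes (0.46), 14 class I genes (0.16) and 3 turnover genes (-0.10), beside -0.0017 for all genes. Among them were 0.98 ± 0.41 for the protease gene Ctsl (adjusted p = 0.525), 0.91 ± 0.37 for Cd63 (adjusted p = 0.521) and 0.88 ± 0.25 for Spi1, the PU.1 factor (adjusted p = 0.333). With at least 30 counts required, none was called in whole marrow, where Tap1, a peptide transporter gene, stood at 1.23 ± 0.44 (adjusted p = 0.532), or in the B-lineage-like or monocyte/macrophage-like cells.

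Across cell types the same lists are a description, because their genes, unlike the members, helped to form the clusters. Against the monocyte/macrophage-like class, 7 of 10 tested endosomal genes were lower in the B lineage (8.12% of all genes were) and none was higher. The median was -2.44, beside 0.43 for all genes. Ctss, the cathepsin that trims the invariant chain, differed by -3.02, Ifi30, the lysosomal thiol reductase, by -3.45 and Ctsh by -3.60. March1, the ubiquitin ligase that removes class II from the surface, had the largest estimate, -6.17. Its level was 367 ± 199 CPM in monocyte/macrophage-like and 4.1 ± 12.3 in B-lineage-like cells. The low side is near 0 with a spread larger than its mean, so the size of this fold change is uncertain. Of 7 promoter factors, Nfyb, an NF-Y subunit, was higher (1.33) and Spi1 lower (-2.17). Against granulocyte-like cells the B lineage was higher for Ctss (2.42), Ifi30 (1.69) and the factor Irf8 (1.98) and lower for 6 other endosomal genes, Cd63 (-6.48) among them. The class I list was higher in the B lineage than in erythroid-like cells for 7 of 15 genes (19.1% of all genes were), including B2m (1.14), H2-K1 (1.95) and the immunoproteasome gene Psmb9 (5.05), and none was lower. The low sides of Psmb9 (1.7 ± 5.2 CPM in erythroid-like cells) and Cd63 (5.0 ± 12.2 CPM in B-lineage-like cells) were also near 0. The sizes of these 2 fold changes are therefore uncertain as well. Between stages, Unc93b1 (1.47), B2m (0.46) and H2-D1 (0.79) were higher and Calr (-0.57), Canx (-0.66) and Pdia3 (-0.98) lower in pre-B-like cells. Of the class II region genes, H2-Ob, which encodes a chain of the DO inhibitor of DM, had 19 counts and 31.4 ± 22.7 CPM in B-lineage-like cells, H2-Oa had 6 counts and H2-Eb2 4. Rfx5, a subunit of RFX, had 4 counts.

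The genes most like the core genes over the 35 sums of libraries and classes were Paip2b (r = 0.67), Map3k2 (0.67), Arl4c (0.66), Crip1 (0.65) and Tpm4 (0.65), among 6371 genes compared on the log2(CPM + 10) scale. The sums share libraries and depth, so these values are descriptions. Crip1 had 1280 counts over those sums, 907 of them in the B lineage, whereas Paip2b had 46 and Map3k2 38. Among the DM genes, the same measure gave 0.45 for H2-DMa, 0.17 for H2-DMb1 and -0.19 for H2-DMb2.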

How the data were processed

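The authors deposited 1 table of counts per gene and cell barcode for each library. Per the labels, reads were aligned to mm10 and counted with the Drop-seq software, and the processing notes name STAR. The labels speak of read counts, and whether molecular identifiers were collapsed is not given in the sources used here. A gene absent from a table was taken as 0.

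Cells with at least 200 counts and at most 25% mitochondrial counts were kept. Scrublet marked 33 doublets, which were kept and removed in an alternative. Cells were clustered in Seurat 5.3.0 (anchor integration, 2000 variable genes, 20 components, resolution 1) without the 8 members. A cluster was named from at least 3 markers among its top 50 genes. Counts were summed per library and class (at least 5 cells) and tested by the quasi-likelihood F-test of edgeR 4.0.16 (TMM scaling, filterByExpr, 5% threshold after Benjamini-Hochberg adjustment), with genes of at least 30 counts where members failed that filter, a limit chosen after seeing the data. Standard errors were derived from the F statistic. The code was tested on simulated data.

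The members and lists were chosen with earlier results of these data known. The text names the members, the 5 genes most like the core genes and listed pathway genes past the threshold, or otherwise those with the largest changes. Alternatives comprised DESeq2 1.42.0, other filters, other cell assignments, doublets removed, wt/wt 2 and 3 as 1 library, a replicate block and libraries left out in turn.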

Additional observations from a re-analysis of the deposited data

Results flagged for a closer look

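In 7 of 48 sets of 4 or 5 libraries compared, 1 library stood apart from the others of its genotype by Dixon's criterion. For normally distributed values chance meets it in about 5% of sets. Sparse counts are not so distributed, so the number of flagged sets cannot be read against that share. Cd74 in the monocyte/macrophage-like class was 3434 CPM in wt/wt 2 (57 counts), and the other wt/wt libraries with enough cells ran from 0 to 459. One cell held 56 of those counts. Cd74 in the B lineage was 516 CPM in fl/fl 3 (10 counts in the shallowest library), and the other fl/fl libraries ran from 55.8 to 114. The remaining 5 sets each rest on 1 count in 1 library with the others at 0, a pattern that always meets the criterion. They were Ciita in whole marrow of wt/wt 2 (3.26 CPM) and in its monocyte/macrophage-like cells (60.2 CPM), H2-DMb2 in B-lineage-like cells of wt/wt 2 (15.9 CPM) and in monocyte/macrophage-like cells of wt/wt 4 (55.6 CPM), and Cd74 in monocyte/macrophage-like cells of fl/fl 3 (113 CPM).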

How the results depend on the processing

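Counts of genes called depended on the filter on low counts. Between genotypes in whole marrow 3 genes were called, 6 with DESeq2, 69 with no filter, and 1 without doublets, with wt/wt 2 and 3 as 1 library or with the replicate block, and 1 to 3 with libraries left out in turn. In the B lineage 1 was called, 0 with DESeq2, with wt/wt 2 and 3 as 1 library, with at least 30 counts and with any library left out, 11 with no filter and 4 with the replicate block. In the monocyte/macrophage-like class 0 were called with edgeR, 3 with no filter, 1 with at least 30 counts and 0 to 2 with libraries left out. The lineage comparisons gave, in the order usual filter, no filter and at least 30 counts, 551, 1410 and 1521 genes (B lineage against monocyte/macrophage), 653, 1747 and 1814 (against granulocyte), 654, 1856 and 1873 (against erythroid) and 229, 718 and 625 (monocyte/macrophage against granulocyte). Pre-B-like against pro-B-like gave 249, 35 where cells were assigned singly by their markers and 471 with at least 30 counts.

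Replicate numbers did not pair the libraries (correlations of deviations -0.069, -0.005, -0.117 and -0.039). With the replicate block, Cd74 in whole marrow was -1.15 (adjusted p = 0.753) and the share of cells with Cd74 differed by -1.29 points (exact permutation p = 1.0). That share difference ran from -1.49 to 0.90 points with libraries left out.

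Member values that turned direction were these, with the cause not tested. Cd74 between genotypes in the B lineage was -0.040 with wt/wt 2 and 3 as 1 library (-0.018 with at least 30 counts) and -0.17 where cells were assigned singly, and ran from -0.42 to 0.93 with libraries left out. H2-Ab1 there ran from -0.0043 to 0.48. Cd74 between the B lineage and the monocyte/macrophage-like class was 0.15 with DESeq2 and 1.64 where cells were assigned singly, and ran from -1.26 to 1.17. H2-Ab1 there was 0.85 where cells were assigned singly and ran from -1.19 to 0.23, and between stages it was -0.35 with that assignment.

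Clustering without integration gave no value for the stages, and at least 10 cells per sum gave none for genotype in the monocyte/macrophage-like class or between lineages. Under the usual filter with all libraries no member was tested within classes, and with fewer or joined libraries or the replicate block Cd74 or H2-Ab1 was tested between genotypes in the B lineage in 6 fits, none of them called. At this depth H2-DMb1, H2-DMb2 and Ciita have too few counts for most tests.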
